A study of Homo sapiens with 12 samples.

Results

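The cytosolic ribosomal protein genes encode the protein parts of the ribosome of the cell body, as opposed to that of the mitochondrion. They were taken by gene symbol (RPL, RPLP, RPS and RPSA names followed by a number or nothing, without pseudogene, like and mitochondrial names), which gave 77 of the 30274 genes in the splicing table of MEC1, an established human B cell line from chronic lymphocytic leukemia. MEC1 cells received the splicing modulator H3B-8800 at 75 nM, a compound directed at the SF3B complex, or the vehicle DMSO, and RNA was taken after 6 h. The 12 samples fall into 4 groups of 3: WT with H3B-8800, WT with DMSO, K700E with H3B-8800 and K700E with DMSO. K700E stands for the SF3B1 alleles labelled c.2098A>G and c.2106G>A, carried by 3 edited clones (41, 38 and 15b). WT replicates 1 and 2 were cultures labelled SF3B1 WT, and WT replicate 3 was an edited clone (34b) with c.2106G>A alone. The same 6 cultures or clones supplied both treatments, so the treatments can be paired by clone, whereas K700E and WT cannot be told apart from the clones that carry them.

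Each mature ribosome has one copy of nearly every ribosomal protein, and the 2 subunits are built separately in the nucleolus. The messages of these genes are among the most abundant of a growing cell, most begin with a pyrimidine tract that ties their translation to growth signals, and many of the introns hold small nucleolar RNAs that guide the modification of ribosomal RNA. SF3B1, a core protein of the U2 particle, holds the branch point region of an intron while the 3' splice site is chosen. H3B-8800 acts on that step, and K700E is the most frequent SF3B1 mutation in chronic lymphocytic leukemia.

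Reads that join exons at annotated introns, called spliced reads here, numbered 45840233 to 56676172 per sample over 3 sequencing runs. All 8 B cell markers were present, the summed level of 6 myeloid markers stayed at or under 1.69 RPM (reads scaled to a sum of 1000000 per sample), and 1 of 7 T and NK cell markers was above 1 RPM, as were 3 of 6 fibroblast and epithelial markers, whose summed level was 11.3 to 20 RPM. The ribosomal protein genes had 2237 events in the table, of which 1331 had at least 20 reads in all 12 samples: 516 alternative 5' sites, 391 alternative 3' sites, 352 introns and 72 exons. Another 906 events fell short of 20 reads in at least 1 sample. At that border 66 events had a lowest sample of 20 to 29 reads and 138 one of 10 to 19 reads. Of the 352 introns, 238 had a mean retention level under 1%, and of the 72 exons, 42 had a mean inclusion level over 99%, so only 239 events in 65 genes lay in the range of 1% to 99% and passed the other filters of the event test. Levels are in percent of the transcripts measured at the event, differences between them in percentage points. Coordinates are those of hg38.

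The 4 introns printed here are examples that rose or fell and are 75 to 114 nt long, where the median ribosomal protein intron has 480.5 nt. They are written 5' to 3' on the strand of the gene, with the first 6 bases (the 5' splice site) and the last 20 bases (the 3' splice site with its pyrimidine tract) in capitals, as read from GENCODE transcripts of GRCh38 that keep the intron. The called intron with the largest rise in points is intron 1 of RPL24, 114 nt at chr3:101686558-101686671 on the minus strand, in the coding part of a large subunit gene. Intron 2 of RPL10, 90 nt at chrX:154399397-154399486 on the plus strand, rose nearly as far. Intron 2 of RPL9, 84 nt at chr4:39458310-39458393 on the minus strand, started from under 0.2%. Intron 5 of RPL10, 75 nt at chrX:154400627-154400701, went the other way in the same transcript.
RPL24 intron 1: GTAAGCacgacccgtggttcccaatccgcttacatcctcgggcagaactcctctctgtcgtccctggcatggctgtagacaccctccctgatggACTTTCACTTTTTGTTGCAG
RPL10 intron 2: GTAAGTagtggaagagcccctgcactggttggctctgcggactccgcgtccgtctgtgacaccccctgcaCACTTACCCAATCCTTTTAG
RPL9 intron 2: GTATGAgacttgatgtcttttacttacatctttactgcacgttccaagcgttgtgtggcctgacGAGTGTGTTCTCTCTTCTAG
RPL10 intron 5: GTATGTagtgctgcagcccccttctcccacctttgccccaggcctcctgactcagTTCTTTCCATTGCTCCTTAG
In the last 20 bases, C or T made up 70% in RPL24 intron 1 and RPL10 intron 2, 65% in RPL9 intron 2 and 80% in RPL10 intron 5. Each of the 161 ribosomal protein introns whose letters could be read this way starts with GT and ends with AG.

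Among the exons left out more often with H3B-8800 are 2 short internal coding exons. Exon 3 of RPL41, which encodes the smallest protein of the large subunit, is 23 nt long at chr12:56117189-56117211, and its length is not a multiple of 3. Exon 2 of RPS28, a small subunit gene, is 48 nt long at chr19:8321656-8321703. Both lie on the plus strand and are printed in lower case throughout.
RPL41 exon 3: tggaggaagaagcgaatgcgcag
RPS28 exon 2: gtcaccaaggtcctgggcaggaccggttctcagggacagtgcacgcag

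The first comparison asked what the splicing modulator did to the introns of these genes. Retention rose at some introns and fell at others, often within 1 gene, and most changes were smaller than 1 point: 47 of the 352 introns moved up and 13 down by 1 point or more in WT cells, and 53 and 3 in K700E cells. In WT cells the median retention level of the 352 introns was 0.385% to 0.525% in the 3 H3B-8800 samples and 0.415% to 0.550% in the 3 DMSO samples, which overlap. In K700E cells it was 0.555% to 0.680% with H3B-8800 and 0.450% to 0.470% with DMSO, which do not. The other 86582 introns with 20 reads in every sample had medians of 2.29% to 2.79% with H3B-8800 and 0.450% to 0.640% with DMSO in WT cells, and of 2.33% to 3.29% and 0.640% to 0.670% in K700E cells.

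limma 3.58.1 was fitted to log2 of inclusion over exclusion reads of all events of the table. A call needed an adjusted p (Benjamini-Hochberg) below 0.05 together with 10 points or more of difference. Of the 239 tested events 13 were then higher and 10 lower with H3B-8800 in each genotype, where 14.4% and 17.6% of all 109092 tested events were in WT cells (32% in either direction) and 14.3% and 17% in K700E cells (31.3%). Among introns, 1 of the 75 tested ribosomal protein introns rose in WT cells, where 31.9% of all 45195 tested introns did, and 1 of 75 rose in K700E cells, where 31.6% did. In both comparisons this was RPL24 intron 1, and no ribosomal protein intron fell by this rule. A setting added after the data were seen dropped the filter on the level and the balance of the 2 intron ends and called by adjusted p alone, so that each of the 352 introns was counted. In WT cells 87 of them rose and 100 fell, where 56.8% and 2% of all 86934 introns did, and the median difference was -0.01 points. In K700E cells 148 rose and 43 fell, against 56.7% and 1.69% of all introns, with a median difference of 0.12 points. Mitochondrial ribosomal protein genes had 207 of 321 introns that rose and 2 that fell in WT cells, and proteasome subunit genes 221 of 318 and 2.

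The number of reads goes with the size of these changes. Most ribosomal protein introns had over 10000 reads per sample, and the levels of other introns with as many reads also moved little. At introns with at least 20000 reads per sample, the median difference was -0.02 points over 167 ribosomal protein introns and 0.02 points over 116 introns of 46 other genes in WT cells, and 0.08 and 0.12 points in K700E cells. At 10000 to 20000 reads it was -0.06 points over 106 introns against 0.04 points over 252 others in WT cells, and 0.06 against 0.19 points in K700E cells. At 3000 to 10000 reads it was 0.11 points over 63 introns against 0.34 points over 1563 others in WT cells, and 0.26 against 0.51 points in K700E cells. Below 1000 reads there were 4 ribosomal protein introns beside 77453 others, whose median difference was 1.49 points in WT cells. The ribosomal protein introns thus lay closer to other introns of the same read number than to all introns, and their median difference was the lower one in each class from 1000 reads upward. Whether the level of a message, its age or its sequence goes with this was not tested.

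**Figure D1:**
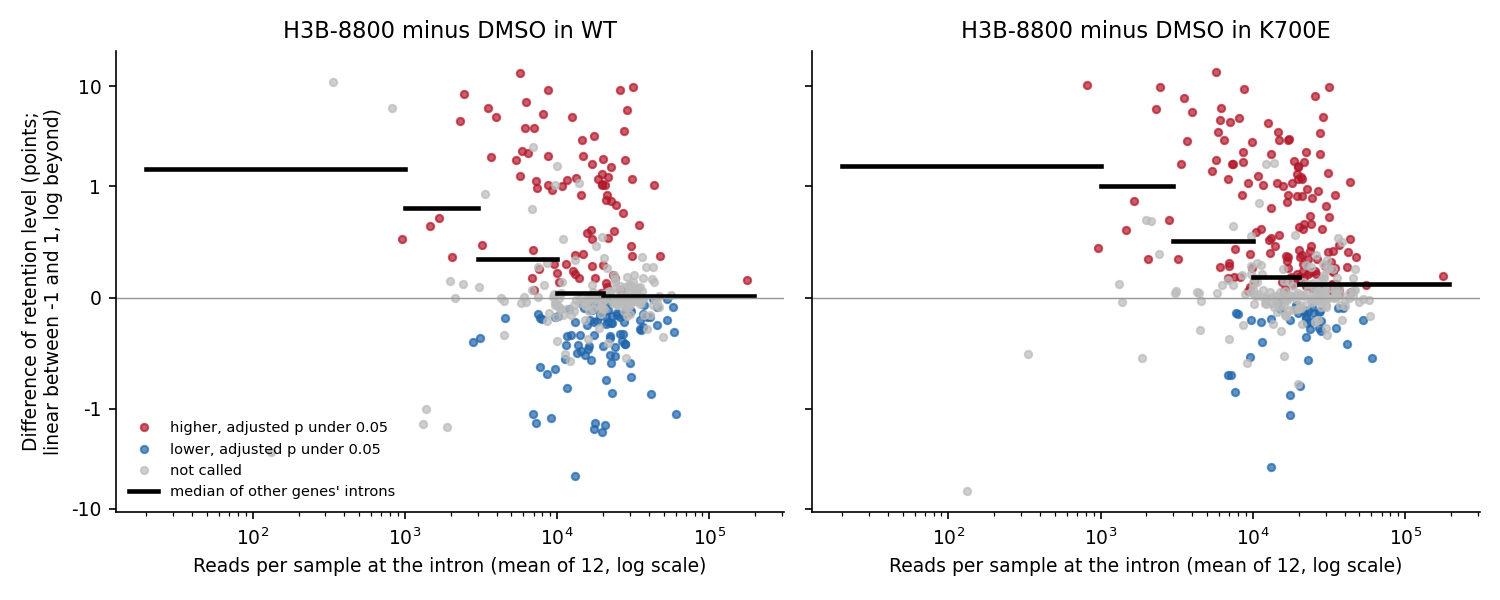
Difference of the retention level, H3B-8800 minus DMSO, of each of the 352 ribosomal protein introns in WT (left) and K700E (right) cells, against the mean number of reads per sample at the intron on a log scale. The vertical axis is linear between -1 and 1 points and logarithmic beyond, colours give the call by adjusted p alone, and black bars give the median of other genes' introns in 5 classes of read number; most points lie within 1 point of 0 and the black bars come down towards 0 as reads rise.

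Introns of large subunit genes were among those that rose most. RPL24 intron 1 was retained at 14.1%, 15.8% and 15.2% in WT H3B-8800 samples, against 1.38%, 1.61% and 1.85% in WT DMSO samples. With K700E the levels were 18.0%, 15.4% and 15.1% with H3B-8800, against 2.21%, 2.41% and 1.91% with DMSO. The treated and untreated samples lay far apart in both genotypes, with differences of 13.4 points (log2 change 3.43 ± 0.17 SE, limma adjusted p = 2.05e-08) and 14.0 points (3.11 ± 0.17, adjusted p = 4.66e-08), and the test of the difference between the genotypes gave an adjusted p of 0.848. RPL24 encodes a large subunit protein that reaches across to the small subunit.

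RPL10 intron 2 was at 10.8%, 13.5% and 13.3% in WT H3B-8800 samples, against 2.37%, 3.00% and 2.91% in WT DMSO samples. In K700E cells the levels were 12.2%, 13.0% and 11.3% with H3B-8800, against 2.34%, 2.18% and 2.26% with DMSO. These groups also did not overlap, and with differences of 9.77 and 9.91 points the intron fell just short of 10 points. RPL10 completes the peptidyl transferase side of the large subunit late in assembly and is mutated in T cell leukemia. RPL9 intron 2 was at 3.35%, 4.14% and 3.75% in WT H3B-8800 samples, against 0.13%, 0.20% and 0.18% in WT DMSO samples. K700E cells had 3.48%, 4.24% and 3.02% with H3B-8800, against 0.17%, 0.18% and 0.14% with DMSO. Its log2 change of 4.52 ± 0.22 in WT and 4.48 ± 0.22 in K700E cells (adjusted p = 1.56e-07 and 1.92e-07 in the setting with all introns) was above that of RPL24 although its difference was under 4 points.

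Further introns rose by 4.32 to 9.23 points in both genotypes. RPL30 intron 2 averaged 10.2% ± 0.68 with H3B-8800 and 1.01% ± 0.09 with DMSO in WT cells (SD, n = 3 each), and 8.93% ± 0.82 and 0.87% ± 0.05 in K700E cells. RPL31 intron 4 averaged 9.34% ± 1.11 and 2.30% ± 0.30 in WT cells, and 7.85% ± 1.59 and 1.84% ± 0.03 in K700E cells. RPS28 intron 2 averaged 7.01% ± 0.34 and 2.03% ± 0.24 in WT cells, and 6.12% ± 0.84 and 1.80% ± 0.08 in K700E cells. At each of these 3 introns the 3 H3B-8800 samples lay above the 3 DMSO samples of the genotype.

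For RPL10, RPL9 and the introns that follow, the test is that of the setting with all introns. A second set of introns was retained less with H3B-8800, from levels that were low already. RPL3, whose product lies near the peptidyl transferase centre, had 7 of 9 introns with a fall in WT cells and 5 of 9 in K700E cells, and no intron with a rise. RPL3 intron 7, which holds SNORD83B, was at 0.80%, 1.19% and 1.05% in WT H3B-8800 samples, against 2.10%, 2.96% and 2.35% in WT DMSO samples. The K700E levels were 0.90%, 0.93% and 0.89% with H3B-8800, against 1.52%, 1.79% and 1.78% with DMSO. RPL3 intron 7 did not overlap between treatments in either genotype, with log2 changes of -1.31 ± 0.20 (adjusted p = 0.000319) and -0.91 ± 0.20 (adjusted p = 0.0037).

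RPL12 intron 6 was at 0.33%, 0.39% and 0.38% in WT H3B-8800 samples, against 1.42%, 2.16% and 1.65% in WT DMSO samples, and its mean in K700E cells was 0.32% ± 0.03 with H3B-8800 and 1.02% ± 0.14 with DMSO. This was the largest fall on the log2 scale among those named here, -2.23 ± 0.21 in WT cells, though its intron ends were unbalanced. RPS12 intron 5, which holds SNORA33, was at 0.41%, 0.44% and 0.34% in WT H3B-8800 samples, against 1.64%, 1.58% and 1.34% in WT DMSO samples. RPL12 forms the base of the stalk and RPS12 lies in the beak of the small subunit. RPL10 intron 5 was at 2.38%, 3.08% and 2.87% in WT H3B-8800 samples, against 4.01%, 4.72% and 4.71% in WT DMSO samples. Its fall of 1.70 points in WT cells passed the test (adjusted p = 0.00535), and in K700E cells, with 2.56% ± 0.21 and 3.34% ± 0.17, it did not (adjusted p = 0.0841). RPL10 thus had an intron that rose and an intron that fell in WT cells, as did 28 of the 77 genes by the same rule; 19 had rises only, 23 falls only and 7 neither. In K700E cells 22 genes had both, 41 rises only, 8 falls only and 6 neither.

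**Figure D2:**
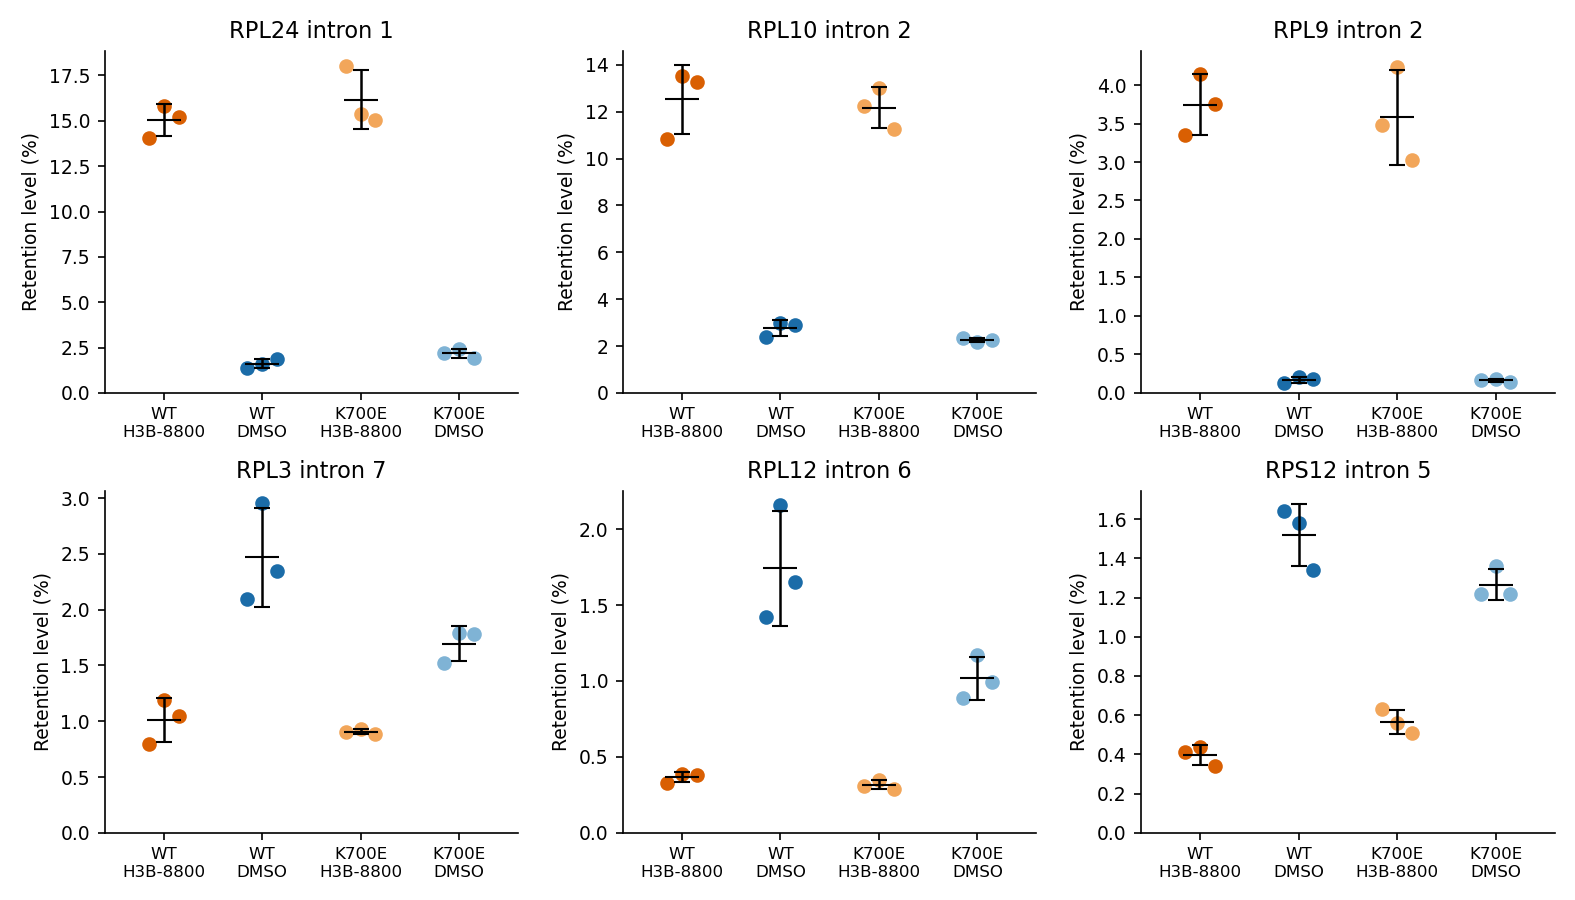
Retention level in percent of 6 introns in each of the 12 samples, in 4 groups from left to right: WT H3B-8800, WT DMSO, K700E H3B-8800 and K700E DMSO. Points are samples and black bars the mean ± SD (n = 3); the upper row shows introns that were higher with H3B-8800, such as RPL24 intron 1 at 14.1% to 15.8% against 1.38% to 1.85% in WT cells, and the lower row introns that were lower, such as RPS12 intron 5 at 0.34% to 0.44% against 1.34% to 1.64%.

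Rises and falls were spread unevenly over place and base composition, given here as counts without a test. Of 67 first introns, 24 rose and 11 fell in WT cells, and of 273 later introns 60 rose and 87 fell. In K700E cells 34 of the first introns rose and 6 fell, beside 110 and 37 of the later ones. Of the 161 introns with readable letters, the 81 with a GC share at or above the median had 35 rises and 11 falls in WT cells, and the 80 below it 17 rises and 28 falls. In K700E cells the counts were 44 rises and 6 falls at or above the median, and 25 rises and 12 falls below it. First introns were also richer in GC, with a median of 60.9% against 48.5% for later introns, so place and composition cannot be told apart in these counts. The readable introns are those that some annotated transcript keeps. Introns of up to 150 nt rose in 17 of 49 cases and fell in 12 in WT cells, and those over 500 nt rose in 28 of 170 and fell in 50. In K700E cells 23 of the 49 rose and 3 fell, and 63 of the 170 rose and 18 fell. The 57 introns with a small nucleolar RNA gene rose in 12 cases and fell in 12 in WT cells, where the 295 introns without one rose in 75 and fell in 88. In K700E cells the 57 rose in 22 cases and fell in 8, and the 295 rose in 126 and fell in 35.

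Most exons of these genes stayed included, with a few exceptions. The median inclusion level of the 72 exons was 99.4% to 99.6% with H3B-8800 and 99.9% with DMSO in WT cells, beside 95.8% to 96.3% and 99.7% to 99.8% for 103263 exons of other genes. By the rule of adjusted p and 10 points, 2 of 15 tested exons fell in WT cells and 3 of 15 in K700E cells, where 40.3% and 38.5% of all 46284 tested exons did. Of the 47 exons included at 95% or more in WT DMSO, none fell by 5 points or more in either genotype. RPLP2 exon 2, at 94.7% in WT DMSO, lay just under that border and fell by 11.3 points in WT and by 10.8 points in K700E cells. Among other genes' exons of that kind the share that fell by 5 points in WT cells was 27.5% under 1000 reads, 19.4% at 1000 to 3000 reads, 7.32% at 10000 to 20000 reads and 1.02% at 20000 reads or more, so it too came down with the number of reads.

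RPL41 exon 3 had an inclusion level of 25.5%, 22.4% and 23.4% in WT H3B-8800 samples, against 72.4%, 73.6% and 74.0% in WT DMSO samples. Its level in K700E cells was 21.3%, 25.9% and 22.7% with H3B-8800, against 67.3%, 67.1% and 58.4% with DMSO. The groups were wide apart, with differences of -49.6 points (adjusted p = 1.46e-07) and -41.0 points (adjusted p = 7.24e-07). This level rested on 2569 reads per sample with H3B-8800 and 1214 with DMSO in WT cells, a small part of the reads at the neighbouring introns. Set against the spliced reads of intron 2 of RPL41, which joins exon 2 to exon 3, the junction from exon 2 to exon 4 made up 11.8%, 12.1% and 11.8% of the reads in WT H3B-8800 samples and 3.56%, 3.44% and 2.96% in WT DMSO samples. In K700E cells that share was 11.1%, 11.6% and 10.1% with H3B-8800, against 3.48%, 4.35% and 4.38% with DMSO. The direction was the same by both measures, and the share left out was far smaller by the second.

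RPLP2 exon 2, 124 nt at chr11:810234-810357 in one of the 2 acidic stalk proteins, was included at 86.0%, 81.8% and 82.6% in WT H3B-8800 samples, against 94.6%, 94.5% and 95.1% in WT DMSO samples. K700E cells included it at 84.1% ± 2.95 with H3B-8800 and 94.9% ± 1.34 with DMSO, and no sample of one treatment reached the range of the other (adjusted p = 3.13e-05 in WT and 3.27e-05 in K700E cells). A 61 nt exon of RPL37A, a large subunit gene, at chr2:216520714-216520774 in a part annotated as 3' untranslated, was included at 10.2%, 12.2% and 14.4% in K700E H3B-8800 samples, against 24.97%, 31.6% and 21.4% in K700E DMSO samples (adjusted p = 0.00312). In WT cells it was at 12.1% ± 2.55 with H3B-8800 and 19.1% ± 2.65 with DMSO, a difference under 10 points.

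Most calls at alternative splice sites were at junctions that pass over an exon. These calls include rises and falls of the level of such a site. An alternative site event compares the donors that share an acceptor, or the acceptors that share a donor, and in 38 of the 149 tested alternative site events the junction passes over an exon of the main transcript. Of these 38 events 15 were called in WT cells and 16 in K700E cells (39.5% and 42.1%), beside 5 and 3 of 96 events at other sites and none of 15 at the annotated introns, where 9.24% of all tested 3' sites and 7.06% of all tested 5' sites were called in WT cells, and 12.2% and 5.59% in K700E cells. The shares of all sites mix every class of junction. Junctions over an exon were not counted in other genes, so whether their share differs from that of the members was not tested. Some calls are rival sites of the same group, as in RPSA and RPL7A. Reads were counted per event, in 29 groups with a shared site, so rival junctions that pass over no exon can be among them. Scaled to the library, they were 2.90 times as many with H3B-8800 as with DMSO at the median in WT cells and 2.81 times in K700E cells. The ratio was at least 2 in 19 of the 29 groups in WT and in 20 in K700E cells. At the called RPL10A event it was 0.39 in WT and 0.49 in K700E cells, so reads were fewer there. These events stayed small: at the median all their reads came to 0.82% of the reads of an intron of the gene with H3B-8800 and 0.34% with DMSO in WT cells, and to 0.98% and 0.41% in K700E cells.

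RPS28 gives an example with few reads before treatment. The junction from its exon 1 to exon 3, which leaves out exon 2, had 606, 728 and 602 reads in WT H3B-8800 samples, against 23, 14 and 10 in WT DMSO samples. K700E cells had 397, 458 and 668 reads with H3B-8800, against 11, 17 and 26 with DMSO. Set against the spliced reads of intron 1 this was a share of 5.26% ± 0.45 and 0.19% ± 0.06 in WT cells, and 4.54% ± 0.64 and 0.23% ± 0.05 in K700E cells. The groups did not overlap in either genotype. In the table it shows at the acceptor of exon 3, where the level of a rival donor at 8321574 fell to 11.9% ± 1.14 with H3B-8800, against 80.1% ± 5.25 with DMSO in WT cells (adjusted p = 2.84e-07). The junction from that donor also leaves out exon 2. Both junctions together had 733 reads with H3B-8800 and 77 with DMSO in WT cells, and 609.7 and 85 in K700E cells, which scaled to the library was 10.4 and 8.07 times as many.

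In RPS25, a small subunit gene, the junction from exon 1 to exon 3 had 3452, 3398 and 3281 reads in WT H3B-8800 samples, against 265, 173 and 169 in WT DMSO samples. K700E cells had 2175, 2215 and 2669 reads with H3B-8800, against 194, 197 and 198 with DMSO. That was 10.3% ± 0.39 against 0.87% ± 0.14 of the reads at the donor in WT cells, and 9.78% ± 0.79 against 0.98% ± 0.10 in K700E cells, with no overlap. The acceptor used by this junction had a level of 94.0% ± 0.42 with H3B-8800 and 52.4% ± 5.87 with DMSO in WT cells (adjusted p = 2.85e-07). That level is a share of the 3592 and 381 reads of its event, beside 29372 and 23093 reads at the annotated junction.

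**Figure D3:**
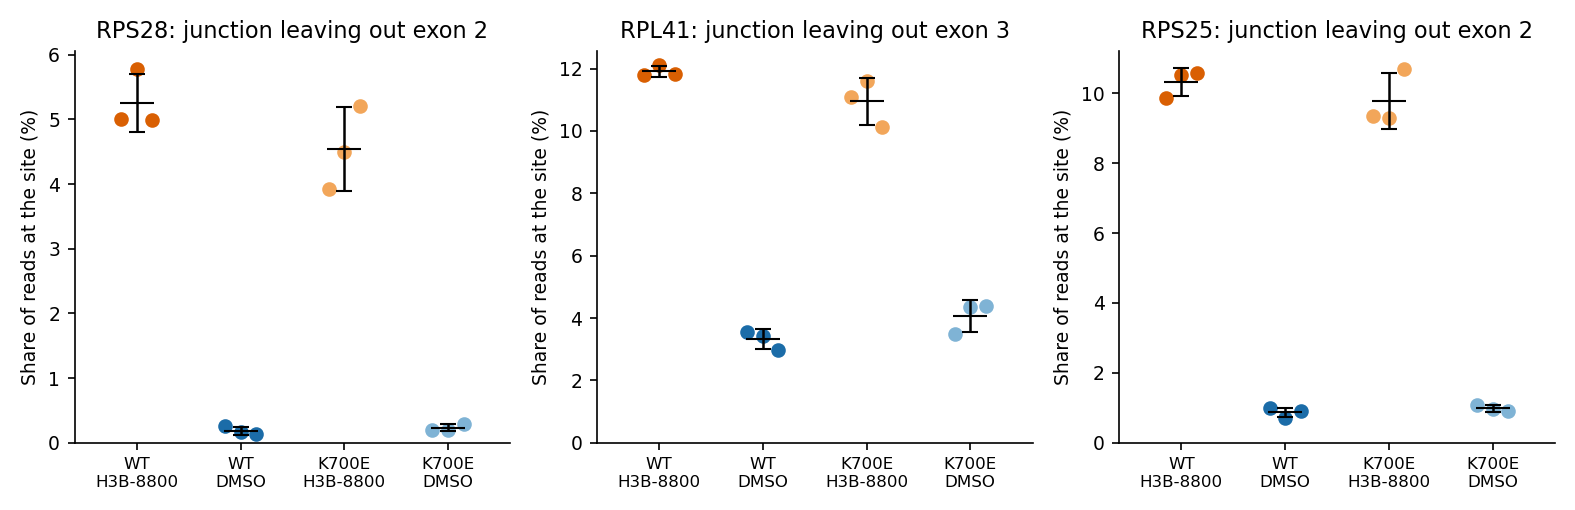
Share in percent of the junction that leaves out exon 2 of RPS28, exon 3 of RPL41 or exon 2 of RPS25, among its reads and those of the annotated intron that shares its donor, in each of the 12 samples of 4 groups. Points are samples and black bars the mean ± SD (n = 3); the H3B-8800 samples lie above the DMSO samples of their genotype in all 3 genes, at 9.88% to 10.6% against 0.71% to 0.98% for RPS25 in WT cells.

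Further sites are named here, and most of them had fewer reads. In RPS6, whose product is phosphorylated in response to growth signals, an acceptor in a junction over 3 exons was used at 77.0%, 80.7% and 72.9% in WT H3B-8800 samples, against 31.3%, 28.9% and 25.3% in WT DMSO samples, on 512 and 162 reads. RPL9 used an acceptor at 84.1% ± 2.10 with H3B-8800 and 35.96% ± 4.55 with DMSO in WT cells, on 91 and 32.3 reads. In RPSA, the small subunit protein also known as the laminin receptor, a donor at 39407786 on chromosome 3 was used at 55.4% ± 0.58 with H3B-8800 and 8.69% ± 2.14 with DMSO in WT cells, and a donor at 39407821 at 44.1% ± 1.18 and 89.6% ± 4.69. RPL17 used a donor at 87.7% ± 1.30 with H3B-8800 and 50.4% ± 3.38 with DMSO in WT cells, and at 89.2% ± 3.79 and 42.0% ± 3.94 in K700E cells. RPL21 used one at 89.0% ± 5.25 and 68.7% ± 5.80 in WT cells, and at 85.9% ± 2.87 and 42.6% ± 2.00 in K700E cells. In WT cells these levels rested on 241 and 91 reads for both RPSA donors, 354 and 113 for RPL17, and 194 and 25.7 for RPL21. With H3B-8800 those reads came to 0.76%, 2.11% and 0.70% of the reads of an intron of the gene. The levels are therefore shares of a small event and not of all transcripts of the gene. Each of these sites was called in both genotypes, and no sample of one treatment overlapped the other. RPL21 also had an acceptor in a junction over 2 exons with more reads. Its event had 1424 reads with H3B-8800 and 95 with DMSO in WT cells, 5.11% and 0.40% of the reads of an intron. In K700E cells it had 1943 and 142 reads, 8.56% and 0.70%. The level of this acceptor rose by 8.27 points in WT cells, too little for a call, and by 12.1 points in K700E cells, which was called.

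The second question was how much spliced message of these genes was present. A gene's spliced reads are the raw exon-exon reads of its annotated introns, scaled to the sum of all spliced reads and given in RPM, a share of the library and no absolute amount; they also depend on the number of introns, so they are compared between samples and not between genes. The ribosomal protein genes held 18.5%, 16.6% and 16.6% of all spliced reads in WT H3B-8800 samples, against 13.6%, 12.8% and 12.01% in WT DMSO samples. In K700E cells they held 13.6%, 15.4% and 14.5% with H3B-8800, against 10.0%, 11.9% and 11.6% with DMSO. The treated samples lay above the untreated ones in both genotypes, and the ratio of the means was 1.35 in WT and 1.30 in K700E cells (exact permutation test, two-sided, p = 0.1 each, the smallest p that 3 against 3 samples allow). Fewer cells of a kind and less RNA per cell cannot be told apart in such bulk samples.

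Unspliced reads at the introns of these genes came to 0.92% to 1.12% of their intron reads with H3B-8800 and 0.75% to 0.95% with DMSO in WT cells, and to 1.05% to 1.21% and 0.75% to 0.78% in K700E cells. In all other genes they came to 5.27% to 6.58% and 2.03% to 2.64% in WT cells, and to 5.75% to 6.79% and 2.51% to 2.58% in K700E cells. In RPM, the unspliced reads of the ribosomal protein genes were 1.66 times as many with H3B-8800 as with DMSO in WT and 1.94 times in K700E cells, and those of other genes 2.49 and 2.54 times.

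**Figure D4:**
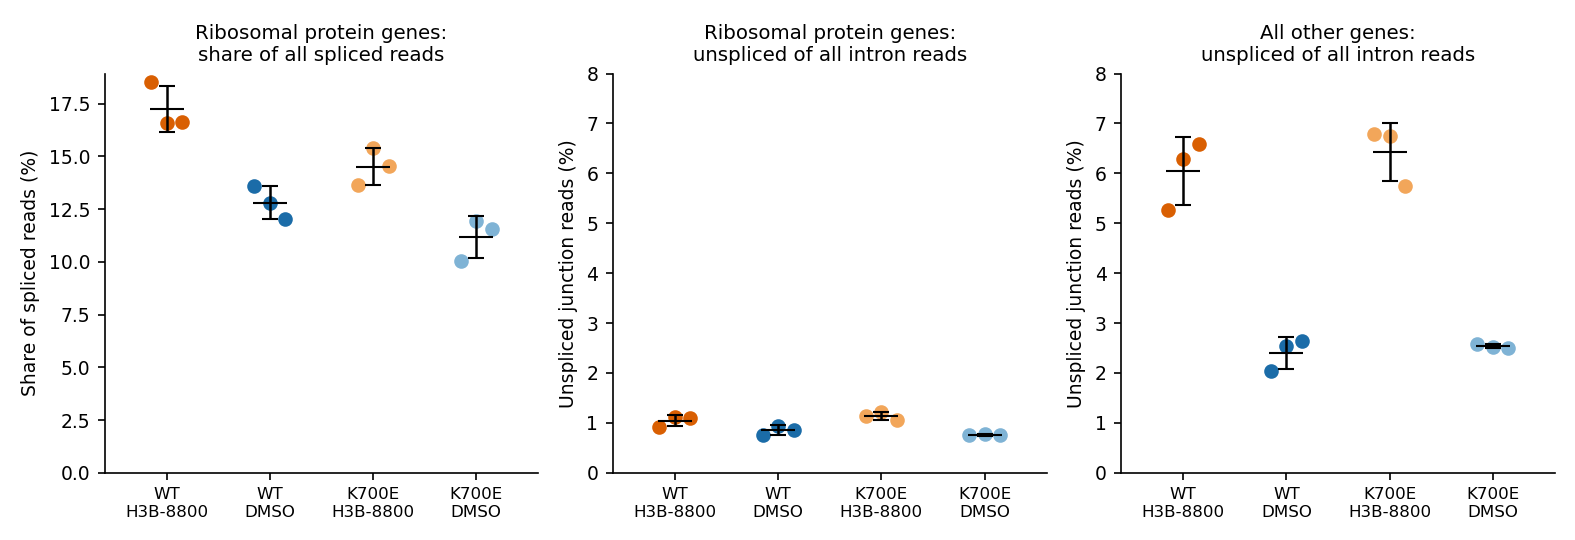
Ribosomal protein genes' share of all spliced reads (left), and unspliced reads in percent of all intron reads for these genes (middle) and for all other genes (right), in each of the 12 samples of 4 groups. Points are samples and black bars the mean ± SD (n = 3); the share was 17.2% ± 1.09 with H3B-8800 and 12.8% ± 0.79 with DMSO in WT cells, and the unspliced percent lay far lower in the ribosomal protein genes than in other genes.

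Gene by gene the rise was narrow. limma with a mean trend on log2 RPM called 73 of 77 genes higher with H3B-8800 in WT cells and 71 of 77 in K700E cells, and none lower, where 18.5% and 16.2% of all 10182 tested genes were higher and 40.8% and 35.8% lower. The median log2 change of the 77 genes was 0.46 in WT and 0.42 in K700E cells, with a range of 0.08 to 0.67 and 0.13 to 0.66, beside medians of all genes of -0.28 and -0.22. In 75 genes in WT and 74 in K700E cells the treatments did not overlap, as in 76.1% and 51.7% of all genes, whichever group was higher. Scaling by the median of ratios moved the median of all genes to -0.0112 in WT and -0.00434 in K700E cells and that of the 77 genes to 0.73 and 0.63, and all 77 were then called in both. With that scaling 29.2% of all genes were higher and 29.3% lower in WT cells, and 26.4% and 26.2% in K700E cells. Other genes can be set beside them by class of spliced reads, which also depends on the number of introns and so is no match on level. Among genes of 1000 to 3000 RPM, all 55 ribosomal protein genes rose in WT cells with a median of 0.48, and 24 of 60 other genes did, with a median of 0.24. In K700E cells 51 of the 55 and 19 of the 60 rose, with medians of 0.43 and 0.19. At 300 to 1000 RPM, 12 of 14 and 120 of 444 rose in WT cells, with medians of 0.49 and -0.02. In K700E cells 13 and 111 of them rose, with medians of 0.41 and -0.01. At 3000 RPM or more the medians lay closer together. There 6 of 8 and 5 of 13 rose in WT cells, with medians of 0.35 and 0.22. In K700E cells 7 and 6 of them rose, with medians of 0.35 and 0.23.

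Of 46 large subunit genes 43 rose in each genotype, with medians of 0.47 in WT and 0.42 in K700E cells. Of 31 small subunit genes 30 rose in WT and 28 in K700E cells, with medians of 0.46 and 0.42. RPS19, the gene most often mutated in Diamond-Blackfan anaemia, had 2419, 2287 and 2123 RPM in WT H3B-8800 samples, against 1585, 1551 and 1430 RPM in WT DMSO samples, and its log2 change was 0.58 ± 0.09 (adjusted p = 0.000276). RPS10 had 2400, 2195 and 2123 RPM in WT H3B-8800 samples, against 1560, 1522 and 1354 RPM in WT DMSO samples. Neither gene overlapped between treatments. RPS28, with the skipped exon, had 771, 777 and 762 RPM in WT H3B-8800 samples, against 533, 542 and 529 RPM in WT DMSO samples, a log2 change of 0.53 ± 0.12, and of 0.62 ± 0.12 in K700E cells. RPS15, which is recurrently mutated in chronic lymphocytic leukemia, had a log2 change of 0.50 ± 0.10 in WT and 0.54 ± 0.10 in K700E cells, and RPS14, which lies in the commonly deleted region of 5q- syndrome, of 0.46 ± 0.08 and 0.43 ± 0.08. RPS6 had changes of 0.54 ± 0.10 and 0.43 ± 0.10, and RPSA of 0.34 ± 0.07 and 0.33 ± 0.07.

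The stalk, which recruits the GTPases of translation, is built from RPLP0, RPLP1 and RPLP2. RPLP1 had 1809, 1766 and 1784 RPM in WT H3B-8800 samples, against 1173, 1215 and 1175 RPM in WT DMSO samples, and RPLP2 had 1484, 1509 and 1445 RPM in WT H3B-8800 samples, against 989, 1070 and 942 RPM in WT DMSO samples. Both rose, with log2 changes of 0.59 ± 0.08 and 0.57 ± 0.08. RPLP0 had 5791, 4998 and 5287 RPM in WT H3B-8800 samples, against 4973, 4650 and 4808 RPM in WT DMSO samples, a log2 change of 0.15 ± 0.07 that was not called in WT (adjusted p = 0.0644) and was called in K700E cells at 0.18 ± 0.07 (adjusted p = 0.043). RPL7A, RPL28 and RPS21 were the others not called in WT cells, with 0.08 ± 0.08, 0.19 ± 0.08 and 0.38 ± 0.15. In K700E cells RPL7A, RPL27, RPL30, RPS3 and RPS21 were among the 6 genes not called. All of these were called after scaling by the median of ratios.

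RPL5 and RPL11 form a particle with 5S ribosomal RNA that can bind MDM2, the ubiquitin ligase of p53. RPL5 had 3381, 3001 and 3020 RPM in WT H3B-8800 samples, against 2412, 2202 and 2073 RPM in WT DMSO samples, a log2 change of 0.49 ± 0.09, and RPL11 changed by 0.43 ± 0.08. In K700E cells the changes were 0.45 ± 0.09 and 0.37 ± 0.08. RPL5 had 7 introns, of which 3 fell and none rose in WT cells, and RPL11 5, of which 2 rose and 1 fell. In K700E cells 1 rose and none fell in RPL5, and 4 rose and 1 fell in RPL11. RPL22 and RPL10, both mutated in T cell leukemia, changed by 0.54 ± 0.09 and 0.31 ± 0.07 in WT cells and by 0.44 ± 0.09 and 0.30 ± 0.07 in K700E cells, and RPL3 by 0.36 ± 0.09 and 0.35 ± 0.09. Of 18 genes of Diamond-Blackfan anaemia, 18 rose in WT and 16 in K700E cells, and of 27 listed hosts of small nucleolar RNAs, 26 and 24; the list leaves out RPS3A, which the annotation also gives as a host.

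**Figure D5:**
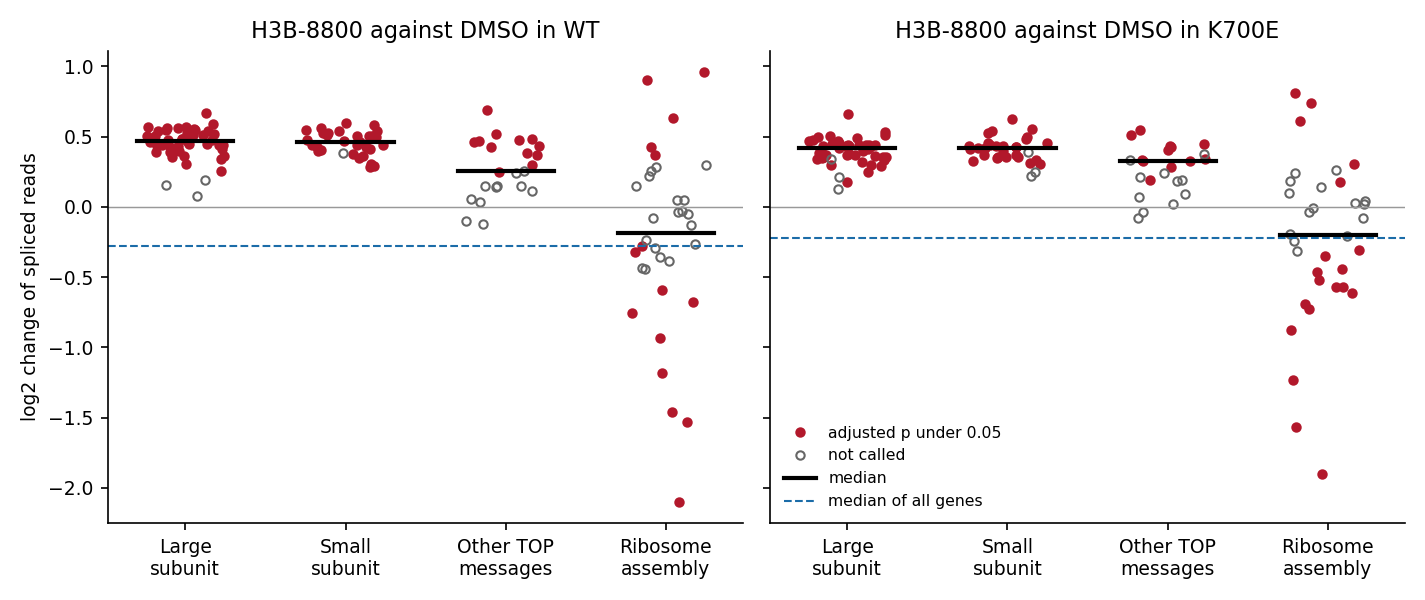
log2 change of spliced reads (RPM), H3B-8800 against DMSO, of each gene in WT (left) and K700E (right) cells, for large subunit genes, small subunit genes, other messages with a terminal oligopyrimidine tract (TOP) and ribosome assembly genes. Filled points have a limma adjusted p under 0.05, black bars are medians and the dashed line is the median of all 10182 genes; the ribosomal protein genes form a narrow band near 0.46 and 0.42, whereas assembly genes spread to both sides of 0.

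Other genes of translation and ribosome assembly give the surroundings. Of 23 tested other TOP messages, 12 rose in each genotype and none fell, with medians of 0.25 and 0.32. They include translation factors and also the non-coding RNAs SNHG5 and GAS5, neither of which was called. EEF1G, a subunit of elongation factor 1, changed by 0.47 in WT and 0.43 in K700E cells, and EEF2, the translocation factor, by 0.15 and 0.19, which was not called in either. FAU, which encodes the small subunit protein eS30 as a fusion, rose by 0.52 and 0.55, and lies outside the symbol rule. Of 34 tested ribosome assembly genes, 5 rose and 10 fell in WT cells (14.7% and 29.4%, beside 18.5% and 40.8% of all genes) and 5 rose and 14 fell in K700E cells (14.7% and 41.2%, beside 16.2% and 35.8%), shares near those of all genes or below them. NOB1, the nuclease that completes 18S ribosomal RNA, fell by 1.53 in WT and by 1.57 in K700E cells on the log2 scale, POLR1A, the largest subunit of RNA polymerase I, fell by 1.18 and by 0.69, and GRWD1, a chaperone of RPL3, rose by 0.96 and 0.81. One gene of this list that rose, AAR2, is known as an assembly factor of the spliceosomal U5 particle. A junction that skips an exon is not counted at annotated introns, so skipping can lower such sums. With the introns beside exon events called lower with H3B-8800 left out, 72 of the 77 ribosomal protein genes rose in WT and 66 in K700E cells. Of all 9839 genes tested in that setting, 16.9% rose and 42.4% fell in WT cells, and 14.6% and 37.2% in K700E cells. Introns beside exons whose skipping shows only at alternative sites, as in RPS28 and RPS25, stayed in. Of 76 mitochondrial ribosomal protein genes 18 rose and 34 fell in WT cells, and of 36 proteasome subunit genes 7 rose and 15 fell.

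A start with C followed by 4 bases that are each C or T, read on the gene's strand at the RefSeq start on GRCh38, was present in 46 of the 62 ribosomal protein genes with a start in that table (74.2%) and in 5.14% of all genes there. The 46 genes had median log2 changes of 0.47 in WT and 0.42 in K700E cells, and the 16 without this start 0.46 and 0.39. An annotated start may lie some bases from the one used in these cells.

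K700E against WT in DMSO asked whether these genes differed between the K700E clones and the WT samples. Of the WT samples only replicate 3 was an edited clone, so the mutation cannot be told apart from clone and editing. No ribosomal protein event was called at an adjusted p under 0.05 and 10 points, where 0.228% of all events were higher and 0.121% lower (0.349% together), and 65 of 239 had an unadjusted limma p under 0.05, beside 14744 of all 109092. The 3 events with the lowest p differed by less than 10 points. A tandem 3' site of RPS24, 3 nt apart on chromosome 10 at 78040201 and 78040204, in a 25 nt exon form near the end of the gene, had its upstream acceptor used at 12.1%, 8.61% and 8.73% in K700E DMSO samples, against 20.01%, 16.7% and 21.2% in WT DMSO samples (-9.47 points, adjusted p = 0.047). With H3B-8800 the acceptor was at 13.3%, 7.89% and 8.31% in K700E samples, against 21.6%, 18.7% and 21.1% in WT samples. The genotypes did not overlap under either treatment, and H3B-8800 moved the site by 0.02 points in K700E and 1.17 points in WT cells (adjusted p = 0.948 and 0.719). RPS24 encodes a small subunit protein whose last coding exons are alternatively spliced. RPL30 exon 3 was included at 99.7% ± 0.06 in K700E and 99.9% ± 0.03 in WT DMSO samples (adjusted p = 0.0333), and an RPSA exon at 100% in the 3 K700E samples, against 94.9%, 100% and 97.6% in the WT samples (adjusted p = 0.0451), on 216 and 101 reads.

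The spliced reads of the ribosomal protein genes made up 11.2% ± 1.01 of the total in K700E and 12.8% ± 0.79 in WT DMSO samples, a ratio of 0.874, with all K700E samples below the WT samples (exact permutation test, two-sided, p = 0.1, the smallest possible). limma called 8 of 77 genes lower in K700E and none higher, where 1.95% and 2.91% of all genes were; in 38 of the 77 genes, beside 32% of all genes, the genotypes did not overlap, and 41 had an unadjusted p under 0.05, beside 2287 of all 10182. The median log2 change was -0.21, beside 0.07 for all genes. RPL14 had 707, 931 and 978 RPM in K700E DMSO samples, against 1354, 1300 and 1208 RPM in WT DMSO samples, a log2 change of -0.57 ± 0.12 (adjusted p = 0.0264). RPS16 had 884, 1013 and 1054 RPM in K700E DMSO samples, against 1383, 1258 and 1337 RPM in WT DMSO samples, a change of -0.43 ± 0.08 (adjusted p = 0.0158). Neither gene overlapped between genotypes. RPS23 and RPLP2 also fell, by 0.40 and by 0.32 on the log2 scale. The count changed when single libraries were left out, and the share of all genes changed as well. With WT DMSO replicate 1 or 3 left out, 0 of the 77 genes were lower, and with WT DMSO replicate 2 left out, 1 was. Of all genes, 0.648%, 0.481% and 0.579% were lower without WT DMSO replicate 1, 2 or 3. The median log2 change of the 77 genes was then -0.18, -0.20 and -0.27. With K700E DMSO replicate 1, 2 or 3 dropped, 1, 5 and 2 of the 77 were lower, beside 1.23%, 1.51% and 0.913% of all genes. The treated samples share the spread, and the count was 3 without WT H3B-8800 replicate 2 or 3 and 5 without K700E H3B-8800 replicate 2. Of all genes, 1.35%, 1.41% and 2.12% were lower there.

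No difference of the H3B-8800 effect between the genotypes was called for these genes, in events (where 0.0055% of all events had a higher and 0.00367% a lower difference in K700E, 0.00917% in all) or in spliced reads (0.0491%). An unadjusted limma p under 0.05 was found for 24 of 239 events, beside 7884 of all 109092, and for 0 of 77 genes, beside 509 of all 10182. The lowest p was that of an intron of RPL7, at 1.44% ± 0.14 with H3B-8800 and 0.74% ± 0.06 with DMSO in K700E cells, and at 0.82% ± 0.09 and 1.23% ± 0.22 in WT cells (adjusted p of the difference 0.116). An alternative 5' site of RPL35 and one of RPL29 followed with adjusted p of 0.314 and 0.338. Over the 352 introns, the difference in log2 change between K700E and WT cells had a median of 0.45, and no single intron of them passed the test of the difference, as 0.0046% of all introns did upward and 0.0138% downward.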

How the data were processed

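Poly(A)-selected RNA was made into stranded libraries, per the labels' protocols. The submitters' processing notes name cutadapt 2.4 and hg38; which aligner and event tool were used is not given in the sources used here. Inclusion levels in percent and a text field of read numbers stand, per the file headers, in the deposited table for 721551 events and each sample; 36 columns of percent for single runs were not used. Libraries had no molecular identifiers, so read numbers are no molecules.

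Events were fitted with limma 3.58.1 in R 4.3.3 on log2 of inclusion over exclusion reads (0.5 added) over 12 samples in 4 groups. The filters were 20 reads in every sample, a mean level of 1% to 99%, balanced intron ends and no first site of an alternative event, which left 109092 events. Spliced reads were fitted on log2 RPM for genes with a mean of 50 reads. Both steps were tested on simulated data. Annotation came from GENCODE 29. Genes with near-identical copies, as ribosomal protein genes with their many pseudogenes, are uncertain because their reads could be split. Samples of a group are separate cultures or clones. Same-numbered samples of the 2 treatments are the same clone; their deviations correlated at 0.66 to 0.93 over genes and 0.01 to 0.07 over events. The genes, lists and named members (called events and genes of largest change, and members chosen for their role) were chosen with earlier results of these data known. Alternatives are given at the end. Some members are not reported here by name.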

Additional observations from a re-analysis of the deposited data

How the results depend on the processing

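Among the values of named events and genes under other settings, 4347 kept their direction and side of the threshold, 138 were no longer called, 36 became called and none reversed. The 23 events called with H3B-8800 in WT and the 23 in K700E cells became 14 and 15 with 50 reads in every sample, 14 and 14 at 20 points, 95 and 106 by adjusted p alone, and 281 and 293 in the setting added after the data were seen, which kept all levels and unbalanced introns and called by adjusted p alone. Shares over all events under these and the later settings are not given here. These event counts therefore do not show whether the members changed more or less than other events. The 73 and 71 genes with more spliced reads became 31 and 8 at a log2 change of at least 0.5 (40.3% and 10.4%, beside 11.9% and 8.98% of all genes, so that the share in K700E cells was near that of all genes). For K700E against WT, the 0 events became 3 by adjusted p alone, 3 with read number weights, 1 on the percent scale, 1 with first sites kept and 5 in the added setting. The 8 genes became 3 with the median of ratios, 5 with scaling without ribosomal protein genes, 5 with a mean of 10 reads, 2 with no filter on reads, 1 at a log2 change of 0.5 and 0 in a fit of the compared groups alone. The cause was not tested. Of all genes, 2.75%, 2.27%, 1.61%, 0.884%, 1.32% and 0.835% were lower in these settings, in that order. The 0 events with a different H3B-8800 effect became 2 on the percent scale. Leaving out 1 sample at a time gave 19 to 24 events in WT, 20 to 23 in K700E cells, 0 to 1 for K700E against WT and 0 to 0 for the difference, and 66 to 76, 59 to 72, 0 to 8 and 0 to 0 genes. With the clone as replicate block, 22 and 22 events and 76 and 77 genes were called with H3B-8800, and in the comparison of K700E with WT, which share only a number, 0 events and 11 genes; over the difference of the effect it gave 0 of each. Over all 10182 genes the block raised the calls as well, to 8391 and 7975 with H3B-8800, 1021 for K700E against WT and 616 for the difference, where the fit without it gave 6042, 5294, 495 and 5. With 20 reads at an event a change of a few points is not detectable.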
